A study of Mus musculus with 36 samples.

Results

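Gene expression in the liver of mice kept in normoxia was compared between ZT8 and ZT12, the last 4 h of the light phase, in which nocturnal mice rest (ZT, Zeitgeber time, counts the hours from lights on at ZT0). The libraries were taken by the condition and time in their labels: 3 libraries at ZT8 and 3 at ZT12, 1 mouse each, which are 6 of the 36 libraries of the series. All mice were male, wild-type, of the strain C57BL/6JRj and 16 weeks old, lived in a cycle of 12 h of light and 12 h of dark with free access to chow and water, and were not fasted before sampling. The normoxia mice had spent 4 weeks in chambers in which air alternated with air. The mice of the comparison group, 6 further libraries of ZT8 and ZT12, had received chronic intermittent hypoxia (IH), cycles of low oxygen from ZT0 to ZT8 every day for the same 4 weeks, so that at ZT12 they had breathed air since ZT8. Food eaten by the sampled mice between ZT8 and ZT12 was not analysed here.

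The liver clock is a loop of transcription factors. CLOCK and BMAL1 (gene Arntl) switch on genes through E-boxes, among them the repressors PER, CRY and REV-ERB, and REV-ERB in turn represses Arntl and other genes. In the mouse liver the end of the light phase is the turn from rest and fasting to activity and feeding, with enzymes of glucose, lipid and bile acid metabolism under the joint control of this loop, of glucocorticoids and of food. Levels are given in FPKM, fragments counted per length of transcript and per size of the library, which can be compared between genes. Differences are ZT12 minus ZT8 of log2(FPKM + 1) with their standard error (SE), a scale that understates the change of low genes. The number of reads behind a value is unknown, and all p-values measure the spread between mice.

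The tissue label held. The 8 hepatocyte markers were high in each of the 6 libraries, Alb (serum albumin) at 23400.0 to 36497 FPKM and Cps1, the first enzyme of the urea cycle, at 229 to 562 FPKM. One library stood apart before any comparison was made. In ZT12 replicate 2 the FPKM values summed to 808274, against 572970 to 616662 in the other 5 libraries, and its correlation with the other ZT12 replicates was 0.949 and 0.950, against 0.989 to 0.993 for the other pairs of replicates within a time point. When genes were split into 4 classes of equal size by exonic length, those of the shortest class lay in it at a median of 0.12 on the log2 scale from the mean of the 18 normoxia libraries and those of the longest at -0.38, while all other normoxia libraries stayed between -0.09 and 0.08 in every class.

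**Figure D1:**
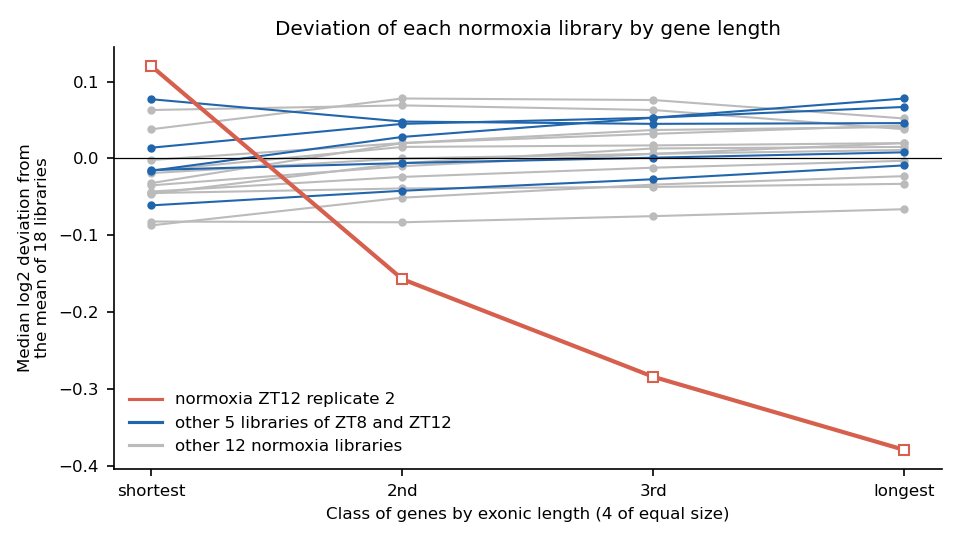
Median log2 deviation of each of the 18 normoxia libraries from their mean (vertical axis) in 4 classes of genes of equal size by exonic length (horizontal axis), with a line for each library. ZT12 replicate 2 (red, open squares) runs from 0.12 in the shortest class to -0.38 in the longest, and the other 17 lines stay between -0.09 and 0.08.

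The same library held high levels of acute phase and metal response genes. Saa1, a serum amyloid A protein made by hepatocytes in inflammation, was at 20546 FPKM in it and at 19.1 to 828 in the other 5 libraries, Hp (haptoglobin) at 17790.4 against 1256 to 1890.3, and Mt1, a metal-binding metallothionein, at 1657 against 9.63 to 34.4. The neutrophil gene S100a8 was at 106 FPKM against 0.0623 to 0.669, and the summed level of the 15 Kupffer cell and leukocyte markers was 553 FPKM in it, 101 in both other ZT12 libraries and 73.1 to 123 at ZT8. Summed endothelial, stellate and cholangiocyte markers in it (45.7, 45.2 and 32.2 FPKM) were within or next to the ranges of the ZT8 libraries (34.1 to 46.5, 49.1 to 70.4 and 27.7 to 41.5). Clec4g, at 33.5 FPKM (19.8 to 27.6 in the other 5), made up most of the endothelial sum. Other endothelial markers were lower in this library than in the other 5: Kdr at 0.376 (2.15 to 3.28), Cdh5 at 2.02 (3.20 to 4.15) and Lyve1 at 0.789 FPKM (1.25 to 1.39). Over the 8 endothelial markers its median deviation from the ZT8 mean was -0.23 on the log2 scale, against -0.19 over all genes. Summed red cell and exocrine pancreas markers in it, 85.5 and 19.6 FPKM, lay above those of the ZT8 libraries (50.6 to 60.6 and 12.7 to 15.9) and of the other ZT12 libraries (59.8 and 51.4, 12.4 and 10.4). The red cell sum covered 3 of the 6 markers. Hbb-bs was at 34.0 FPKM in it (2.14 to 6.71 in the other 5 libraries), but Alas2 was at 51.5 (48.0 to 54.8). Of the 9 pancreas markers summed, 6 were at 0 in all 6 libraries. Cela1, at 17.8 FPKM in it (10.0 to 14.9 in the other 5), made up most of that sum. Tests and list medians below are therefore given with and without ZT12 replicate 2, and its value is the second of the 3 given for ZT12. The part of inflammation, of blood cells or of RNA quality in its values was not tested.

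With the 6 libraries alone, limma called 0 of 13215 genes at an adjusted p under 0.05 (0%), the smallest adjusted p being 0.15, although 1288 genes (9.75%) had an unadjusted p under 0.05. Without ZT12 replicate 2 the same fit on 5 libraries called 25 genes (0.189%), 11 higher and 14 lower at ZT12. When the spread of each gene was estimated from all 18 normoxia libraries, 470 genes (3.56%) were called, and with the 17 libraries that remain without ZT12 replicate 2, 445 genes (3.37%). In what follows a gene is said to have risen or fallen where it was called in both of these last fits, with and without the library that stands apart. That held for 105 genes that rose (0.795% of those tested) and 191 that fell (1.45%). The fits share the ZT8 libraries and the other 2 libraries of ZT12, so they are not independent of each other, and both assume that mice vary alike at all times of day. The median SD between replicates was 0.25 on the log2 scale at ZT12 with replicate 2, 0.084 for replicates 1 and 3, and 0.09 to 0.10 at the other normoxia times.

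The changes were modest in size. The median difference was 0.59 in the genes that rose (0.50 without ZT12 replicate 2) and -0.63 in those that fell (-0.51), against -0.06 (0.01) over all genes tested, and 12 and 24 of them exceeded a 2-fold change. The 3 ZT12 libraries lay wholly above the 3 ZT8 libraries in 104 of the 105 genes and wholly below them in 190 of the 191, against 9.29% and 13.7% of all genes tested. The same values chose these genes, so this separation is in large part given by the choice and is no further support. None of the 105 and 191 genes was called by the fit of the 6 libraries alone, and 7 and 12 were called by that of 5.

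Among the 14 core clock genes 2 rose and 1 fell, against 0.795% and 1.45% of all genes tested. Nr1d1, which encodes the repressor REV-ERB alpha, stood at 51.8, 64.3 and 60.4 FPKM at ZT8 and at 14.4, 6.83 and 9.99 at ZT12. All 3 ZT12 libraries were far below all 3 at ZT8, and the difference, -2.44 ± 0.26 (SE), was the largest fall among the 191 (-2.19 ± 0.17 without ZT12 replicate 2; adjusted p = 0.15 with limma on the 6 libraries, 0.045 without ZT12 replicate 2, and 0.0012 and 0.0016 with the spread of 18 and 17 libraries). Nr1d1 overlaps the thyroid hormone receptor gene Thra on the other strand. Cry1, a repressor of CLOCK and BMAL1 that follows PER, rose from 1.77, 1.98 and 3.07 FPKM to 4.98, 5.85 and 6.56, a difference of 1.07 ± 0.20 (1.06 ± 0.20 without ZT12 replicate 2). Cry1 thus moved opposite to Nr1d1, in groups that did not overlap.

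The other core clock genes did not pass both fits. Nr1d2, the REV-ERB beta gene, stood at 17.0, 19.5 and 22.2 FPKM at ZT8 and at 16.4, 6.59 and 12.6 at ZT12, without overlap (adjusted p = 0.059 and 0.10 with limma on 18 and 17 libraries). Clock was at 1.77, 1.75 and 1.60 FPKM and then at 1.00, 1.02 and 1.52. Its partner Arntl was near its daily low at both times, at 0.372, 0.318 and 0.228 and then 0.164, 0.568 and 0.671 FPKM. The period genes overlapped between the times: Per1 was at 7.65, 13.3 and 14.1 and then 12.6, 7.98 and 16.6 FPKM, and Per2 at 3.92, 5.48 and 5.62 and then 8.51, 4.24 and 10.4. In both, ZT12 replicate 2 was the lowest of its group, and without it the difference of Per2 was 0.81 ± 0.16, with an adjusted p of 0.11 with limma on 17 libraries.

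Of 17 clock output genes 1 rose and 1 fell, against 0.795% and 1.45% of all genes tested. Bhlhe41, which encodes the clock repressor DEC2, fell from 1.16, 1.49 and 1.21 FPKM to 0.610, 0.136 and 0.298. Tspan4, a membrane protein of the tetraspanin family, rose from 24.2, 26.5 and 24.7 FPKM to 49.5, 57.1 and 51.1, a difference of 1.03 ± 0.13, and without ZT12 replicate 2 of 0.97 ± 0.08. The tight groups put Tspan4 among the genes with the smallest p. It overlaps Chid1 on the other strand. Dbp, the activator at D-boxes, was at 62.9, 78.4 and 71.2 FPKM at ZT8 and at 58.0, 9.56 and 28.1 at ZT12. Its groups did not overlap, but its 3 ZT12 mice differed by more than the 2 times did, and it passed neither fit (adjusted p = 0.055 and 0.096 with limma on 18 and 17 libraries). Nfil3, the repressor that opposes DBP, was at 3.57, 4.35 and 4.14 and then 6.66, 13.6 and 9.28 FPKM, and passed with 18 libraries alone (adjusted p = 0.049 and 0.13). Nampt, the enzyme that salvages NAD, was at 9.92, 16.8 and 14.6 and then 29.2, 13.8 and 28.8 FPKM, and passed without ZT12 replicate 2 alone (adjusted p = 0.0074 with 17 libraries).

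The 3 ZT12 mice kept an order in some of the clock genes. Of the 30 core and output genes that averaged 1 FPKM or more over the series, 15 had a mean at ZT16 below those at ZT8 and ZT12, and ZT12 replicate 2 was the lowest of the 3 ZT12 libraries in 15 of these 15 and replicate 1 the highest in 11. In 10 genes the ZT16 mean was above both. There ZT12 replicate 2 was the lowest in 4 and the highest in 2, and replicate 1 the lowest in 6 and the highest in 2. The median deviation of replicate 2 from the ZT8 mean was -0.19 on the log2 scale over all genes. Whether the 3 mice differed in clock phase was not tested.

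**Figure D2:**
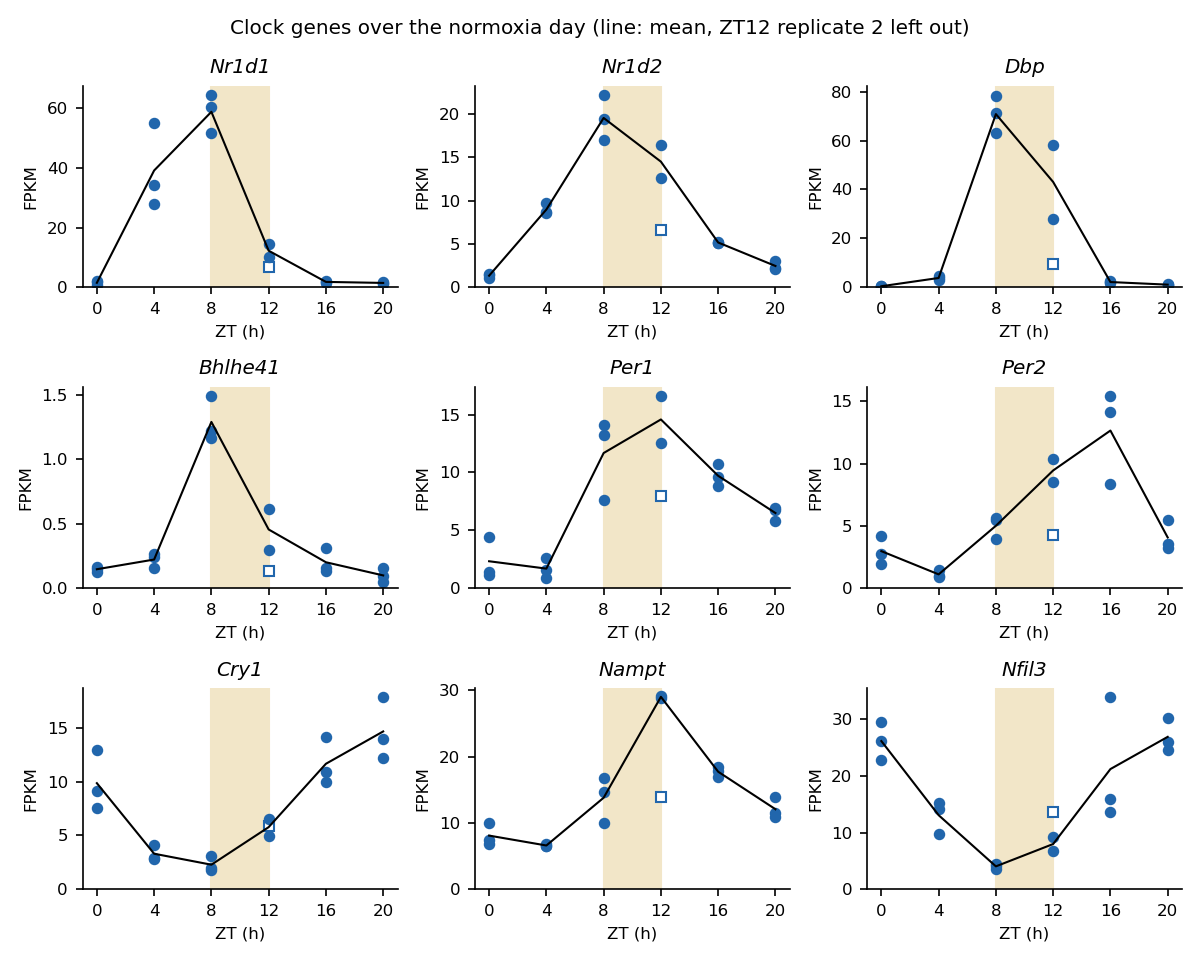
FPKM (vertical axes) of 9 clock genes in each normoxia library against ZT in hours (horizontal axes), with lines through the means, ZT12 replicate 2 (open square) left out of the mean, and the 4 h compared here shaded. Nr1d1 and Bhlhe41 are lower at ZT12 than at ZT8, and Cry1 climbs from ZT8 to ZT12 toward its later maximum. ZT12 replicate 2 is the lowest ZT12 point in every panel but those of Cry1 and Nfil3.

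Promoter sequence was read for genes that rose or fell together, because the loop acts through short DNA letters. The 250 bases before the annotated start come from RefSeq (GRCm38.p6) and were searched on both strands for an E-box (CACGTG), a D-box (TTATGTAA or TTACGTAA) and a cyclic AMP response element (CRE, TGACGTCA). Over all 32851 promoter entries of mouse genes 6.02% held the E-box, 0.931% the D-box and 1.55% the CRE. A ROR response element (RORE) and a heat shock element were searched as well, and 0.177% and 0.466% of the entries held them. A promoter was at hand for 82 of the 105 genes that rose (78.1%), 152 of the 191 that fell (79.6%) and 79.1% of those tested. Shares of motifs were not compared between these sets. Below are the sequences of 4 genes with an E-box and 1 with a D-box, the letters of the motif in capitals, read 5′ to 3′ on the gene's strand: Cry1 at chr10:85185055-85185304 (minus strand), Bhlhe41 at chr6:145865421-145865670 (minus), Tspan4 at chr7:141476130-141476379 (plus), Fkbp5 at chr17:28486150-28486399 (minus) and Gde1 at chr7:118705739-118705988 (minus). Each window ends at the base before an annotated transcription start, for Tspan4 the downstream one of its 2 starts.
Cry1: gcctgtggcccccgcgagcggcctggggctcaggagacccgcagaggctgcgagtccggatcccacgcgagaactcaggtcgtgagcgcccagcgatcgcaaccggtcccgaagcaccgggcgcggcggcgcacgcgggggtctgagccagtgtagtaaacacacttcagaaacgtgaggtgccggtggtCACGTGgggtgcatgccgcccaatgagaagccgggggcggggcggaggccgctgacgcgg
Bhlhe41: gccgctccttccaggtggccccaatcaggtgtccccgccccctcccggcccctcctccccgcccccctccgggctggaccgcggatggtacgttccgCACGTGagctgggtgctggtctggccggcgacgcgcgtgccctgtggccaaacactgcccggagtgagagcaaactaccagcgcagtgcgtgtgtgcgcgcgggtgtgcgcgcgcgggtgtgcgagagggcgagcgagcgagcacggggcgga
Tspan4: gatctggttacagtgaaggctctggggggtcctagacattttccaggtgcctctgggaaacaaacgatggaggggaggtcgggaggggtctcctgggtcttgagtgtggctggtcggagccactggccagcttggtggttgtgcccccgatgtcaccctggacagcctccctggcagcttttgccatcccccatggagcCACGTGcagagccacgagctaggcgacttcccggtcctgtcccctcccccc
Fkbp5: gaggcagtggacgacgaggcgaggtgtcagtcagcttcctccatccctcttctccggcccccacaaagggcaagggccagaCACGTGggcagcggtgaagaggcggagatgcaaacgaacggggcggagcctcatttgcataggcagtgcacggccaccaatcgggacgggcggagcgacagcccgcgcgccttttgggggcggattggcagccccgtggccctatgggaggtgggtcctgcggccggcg
Gde1: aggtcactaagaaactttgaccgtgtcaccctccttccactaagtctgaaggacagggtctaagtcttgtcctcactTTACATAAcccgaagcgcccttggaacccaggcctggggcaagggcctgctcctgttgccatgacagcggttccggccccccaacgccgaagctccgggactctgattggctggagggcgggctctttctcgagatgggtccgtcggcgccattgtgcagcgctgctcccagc
The first base of the E-box lay at -60 in Cry1, -153 in Bhlhe41, -51 in Tspan4 and -169 in Fkbp5, counted from the start site, and that of the D-box at -173 in Gde1. These 5 genes were chosen for display after the matches were seen. Among all the named genes that passed and had a promoter, the E-box was held by 6 of the 23 that rose (Atp5g1, Hsph1 and Mrpl20 besides those shown) and by 3 of the 21 that fell (Cbs and Lonp2 besides Bhlhe41). The D-box was held by 1 and 0 of them, and the CRE by 3, Mdh2, Ndufb2 and Rpl18, and 0. A gene with several starts was counted if any of its windows matched, so these counts do not compare with the shares of single entries. Neither the RORE nor the heat shock element was found in any window of these named genes. Nr1d1 held none of the searched motifs in its window.

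In bile acid synthesis and transport 6 of 26 genes fell and 0 rose, against 1.45% and 0.795% of all genes tested. Hsd3b7, which oxidises the steroid ring early in the pathway, fell from 238, 230.2 and 207 FPKM to 96.5, 67.3 and 101, a difference of -1.36 ± 0.19 (-1.18 ± 0.10 without ZT12 replicate 2). Cyp8b1, the 12-alpha-hydroxylase that sets the share of cholic acid, fell from 141, 123 and 119.8 FPKM to 54.0, 28.9 and 76.9. Both enzymes were lower in all 3 ZT12 mice than in any ZT8 mouse. Amacr and Acox2, which shorten the side chain in peroxisomes, fell by 0.56 ± 0.12 and 0.78 ± 0.13 (0.52 ± 0.09 and 0.74 ± 0.10 without ZT12 replicate 2). The canalicular pumps fell as well. Abcb11, the bile salt export pump, went from 76.5, 69.9 and 76.1 FPKM to 44.4, 32.9 and 39.1, and Abcb4, which moves phosphatidylcholine into bile, from 50.4, 65.3 and 63.5 to 38.6, 21.3 and 40.6. The median of the 26 genes was -0.47, and -0.22 without ZT12 replicate 2, in which the median deviation from the ZT8 mean was -0.92, against -0.13 and -0.18 in replicates 1 and 3. The 6 genes fell with and without that library, while the size of the list median leaned on it.

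In fatty acid oxidation and ketogenesis, the programme of the fasting liver, 2 of 33 genes fell and 0 rose, against 1.45% and 0.795% of all genes tested. Plin2, which coats lipid droplets, fell from 141, 196 and 169.6 FPKM to 67.5, 87.3 and 73.9, a difference of -1.13 ± 0.18 (-1.23 ± 0.15 without ZT12 replicate 2). Etfdh, which passes electrons from fatty acid oxidation to ubiquinone, fell from 87.8, 114 and 110.2 to 61.6, 33.2 and 77.5 FPKM. The median of the list was -0.36, but -0.09 without ZT12 replicate 2. Cpt1a, the gate of fatty acid entry into mitochondria, was at 88.8, 107 and 107 FPKM and then at 72.0, 29.8 and 75.3, without overlap and without passing either fit (adjusted p = 0.083 and 0.24 with limma on 18 and 17 libraries).

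On the side of lipid synthesis 1 of 24 genes rose and 1 fell, against 0.795% and 1.45% of all genes tested. Insig2, the anchor that holds SREBP in the endoplasmic reticulum, fell from 52.7, 34.7 and 33.1 FPKM to 13.1, 12.1 and 14.2, a difference of -1.51 ± 0.20 that was alike without ZT12 replicate 2 (-1.46 ± 0.21). Agpat2, an acyltransferase of triglyceride synthesis, rose from 86.1, 74.7 and 68.4 to 91.8, 129.5 and 113 FPKM. Thrsp, a lipogenic gene induced by feeding, was at 279.9, 231 and 309.6 FPKM at ZT8 and at 533, 1984 and 885 at ZT12, and passed with the spread of 18 libraries but not of 17 (adjusted p = 0.024 and 0.052). In cholesterol synthesis 0 of 25 genes passed both fits. Hmgcs1, the enzyme before HMG-CoA reductase, was at 64.2, 54.2 and 44.4 FPKM and then 24.2, 27.4 and 27.4, with no overlap (adjusted p = 0.070 and 0.12 with limma on 18 and 17 libraries).

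Among genes of glucose use and of the ChREBP response, 2 of 19 rose and 2 fell, against 0.795% and 1.45% of all genes tested. Pfkfb1, which makes and breaks the glycolytic signal fructose 2,6-bisphosphate, rose from 11.4, 13.2 and 8.86 to 18.6, 21.4 and 21.0 FPKM. Txnip, a brake on glucose uptake that ChREBP activates, fell from 65.6, 79.7 and 69.7 FPKM to 16.2, 8.33 and 15.8, a difference of -2.38 ± 0.26 (-2.09 ± 0.11 without ZT12 replicate 2; adjusted p = 0.15 with limma on 6 libraries and 0.0074 on 5). Slc2a5, the fructose carrier GLUT5, fell from 3.22, 2.68 and 2.88 to 1.60, 0.912 and 1.19 FPKM. The list held no common direction, its median being 0.14 (0.17 without ZT12 replicate 2). Txnip overlaps a gene on the other strand.

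For glucose output and glycogen, 0 of 21 and 0 of 22 genes passed both fits, near the 0.795% that rose and 1.45% that fell of all genes tested. G6pc, the phosphatase that releases glucose, was at 179.5, 150.2 and 156 FPKM at ZT8 and at 19.7, 54.3 and 116 at ZT12, without overlap, with a difference of -1.67 ± 0.57 (adjusted p = 0.071 and 0.13 with limma on 18 and 17 libraries). The level differed widely among the 3 ZT12 mice, the third lying close to the ZT8 group. Irs2, the insulin receptor substrate that is high in fasting, was at 1.36, 1.32 and 1.27 FPKM and then 0.532, 0.159 and 0.484 (adjusted p = 0.046 on 5 libraries, 0.047 and 0.12 with the spread of 18 and 17). Ppp1r3b, a glycogen-targeting subunit of protein phosphatase 1, was at 20.5, 23.6 and 24.1 and then 38.2, 41.4 and 94.3 FPKM, and its relative Ppp1r3c at 11.7, 10.1 and 15.0 and then 3.91, 3.06 and 6.87. Pck1 was at 884, 909 and 1191 and then at 819.8, 667 and 778 FPKM.

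**Figure D3:**
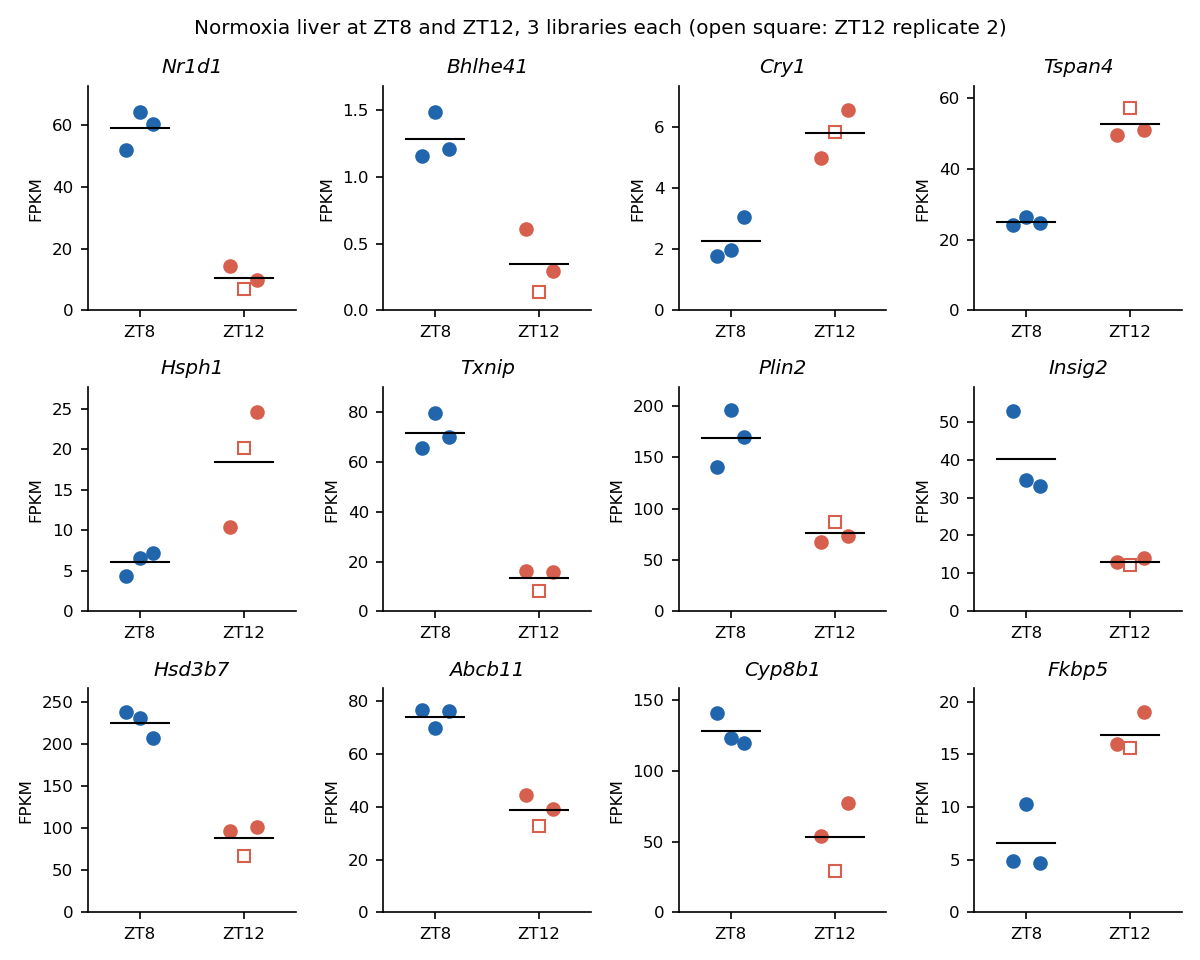
FPKM (vertical axes, from 0) of 12 genes that rose or fell in each of the 3 normoxia libraries at ZT8 (blue) and the 3 at ZT12 (red, open square for replicate 2), with a bar at each mean. The groups do not overlap in any of the 12 panels, from Nr1d1 at 51.8 to 64.3 and then 6.83 to 14.4 FPKM to Fkbp5 at 4.65 to 10.3 and then 15.6 to 19.0. The genes were chosen from these same values.

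Of 24 cytosolic heat shock chaperones 2 rose and 0 fell, against 0.795% and 1.45% of all genes tested. Hsph1 (HSP105), a partner of HSP70, rose from 4.40, 6.57 and 7.15 FPKM to 10.4, 20.2 and 24.6, and Fkbp4, a co-chaperone of steroid receptors, from 49.8, 45.9 and 48.0 to 62.6, 96.9 and 80.5. In 12 of the 24 genes the ZT12 mice lay wholly above the ZT8 mice, against 9.29% of all genes tested (14 and 19.1% without ZT12 replicate 2), and the list median was 0.49 (0.37). Hsp90aa1, inducible HSP90, was at 30.4, 26.7 and 27.5 and then at 31.7, 84.3 and 84.4 FPKM. For this gene ZT12 replicate 1 sat near the ZT8 level, and so it did for Hspa1b, at 3.88, 4.37 and 5.09 and then 5.25, 22.7 and 17.1 FPKM. The 3 mice had median deviations of 0.14, 0.55 and 0.62 from the ZT8 mean over the list. In the unfolded protein response of the endoplasmic reticulum 1 of 24 genes fell and 0 rose, against the same shares of all genes. That gene, Trib3, a pseudokinase induced by ATF4, fell from 4.53, 5.25 and 7.01 FPKM to 1.88, 0.428 and 0.832. The rest of this list leaned the other way. The difference was positive in 18 of the 24, against 39.5% of all genes tested. The list median was 0.15 (0.23 without ZT12 replicate 2), by mouse 0.01, 0.02 and 0.36 above the ZT8 mean.

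Among 20 genes of the glucocorticoid response 1 rose and 0 fell, against 0.795% and 1.45% of all genes tested. Fkbp5, a co-chaperone that glucocorticoid induces and that restrains its receptor, rose from 4.85, 10.3 and 4.65 FPKM to 16.0, 15.6 and 19.0, a difference of 1.31 ± 0.29 (1.36 ± 0.31 without ZT12 replicate 2). Gadd45g, a stress gene, was at 3.93, 2.39 and 1.32 FPKM and then at 42.8, 79.5 and 8.88, without overlap but with a wide spread, and did not pass (adjusted p = 0.097 and 0.28 with limma on 18 and 17 libraries). Klf9, a repressor under clock and glucocorticoid control, was at 24.0, 23.2 and 17.6 and then at 13.5, 1.37 and 12.8 FPKM, and passed with 17 libraries alone (adjusted p = 0.034). The list median moved from 0.49 to 0.14 when ZT12 replicate 2 was left out.

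Of 32 genes of the urea cycle and amino acid breakdown 1 rose and 2 fell, against 0.795% and 1.45% of all genes tested. Asl, argininosuccinate lyase of the urea cycle, rose from 239, 212 and 254 FPKM to 351, 537 and 350.1. Hal, which begins histidine breakdown, fell from 112, 78.3 and 89.0 to 53.0, 45.2 and 39.9 FPKM. Cbs, the first enzyme of transsulfuration, fell from 180.1, 139.9 and 145 to 101, 99.8 and 86.6 FPKM, and Cth, the next, was at 186, 129 and 154 and then 110.1, 51.3 and 108 (adjusted p = 0.055 and 0.12 with limma on 18 and 17 libraries). Of 24 interferon response genes 1 fell, against 1.45% of all genes tested: Lgals3bp, a secreted glycoprotein, from 33.9, 31.2 and 32.2 to 21.7, 22.5 and 22.3 FPKM. In 12 of the 24 the ZT12 mice lay wholly below the ZT8 mice, against 13.7% of all genes tested (15 and 16.7% without ZT12 replicate 2), and the median was -0.24 (-0.25). Usp18, the feedback protease of interferon signalling, was at 5.02, 5.20 and 4.66 and then 2.81, 2.12 and 2.11 FPKM (adjusted p = 0.073 and 0.16).

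Ribosomal protein and respiratory chain genes lay above their ZT8 levels in most members, and ZT12 replicate 2 was the highest. Of the 80 cytosolic ribosomal protein genes tested, 6 rose, among them Rpl10, Rpl18, Rpl24, Rpl27 and Rpl37, and 0 fell, against 0.795% and 1.45% of all genes tested. The ZT12 mice lay wholly above the ZT8 mice in 73 of the 80, against 9.29% of all genes tested (73 and 19.1% without ZT12 replicate 2), and the difference was positive in 80, against 39.5%. Rpl37, of the large subunit, rose from 92.9, 101 and 99.5 FPKM to 139, 231 and 120.3, a difference of 0.68 ± 0.25, and of 0.40 ± 0.10 without ZT12 replicate 2. The median of the list was 0.59, and 0.30 without that library, by mouse 0.37, 1.20 and 0.23 above the ZT8 mean. With the spread of the 17 libraries 30 of the 80 were called higher, against 7 with 18. Many of these genes have processed pseudogenes that can share their reads. Among 78 subunits of the respiratory chain 3 rose, Atp5g1, Ndufb2 and Uqcr10, of ATP synthase, complex I and complex III, and 0 fell, against the same shares of all genes. Atp5g1 rose from 171, 191 and 183 to 279, 337 and 222 FPKM, and in 54 of the 78 the groups did not overlap with ZT12 higher, against 9.29% of all genes (62 and 19.1% without ZT12 replicate 2). Their median was 0.43, and 0.25 without ZT12 replicate 2. Of 77 mitochondrial ribosomal proteins 1 rose, Mrpl20, and 0 fell, near the 0.795% and 1.45% of all genes tested. Of 24 enzymes of the TCA cycle 1 rose, Mdh2, from 129.6, 132 and 127 to 167, 160.1 and 155 FPKM, and 0 fell. The TCA cycle list held no common direction, with a median of -0.09 (0.07 without ZT12 replicate 2). Its difference was positive in 9 of the 24 (18 without that library), against 5225 (6932) of all 13215 genes.

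Transcript length went with the direction of change. The median exonic length was 2719 bases in the 105 genes that rose and 5260 in the 191 that fell, against 4201 over all genes tested. Removing a trend with length and GC content from every library left 77 of the 105 and 169 of the 191 called with the spread of 18 libraries. Scaling the libraries by median of ratios left 89 and 171 called, quantile normalization 100 and 177, and a common FPKM sum 42 and 165, so that most of the 105 lost their call under the common sum. All 105 kept their sign under these 4 settings, and so did the 191, of which 190 had a length. The median of the cytosolic ribosomal proteins went from 0.59 to 0.47 with the trend removed, 0.72 with median of ratios, 0.33 with quantile normalization and 0.41 with a common sum, and that of the respiratory chain from 0.43 to 0.23, 0.56, 0.20 and 0.24. That of the mitochondrial ribosomal proteins went from 0.28 to 0.16, 0.40, 0.24 and 0.10.

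**Figure D4:**
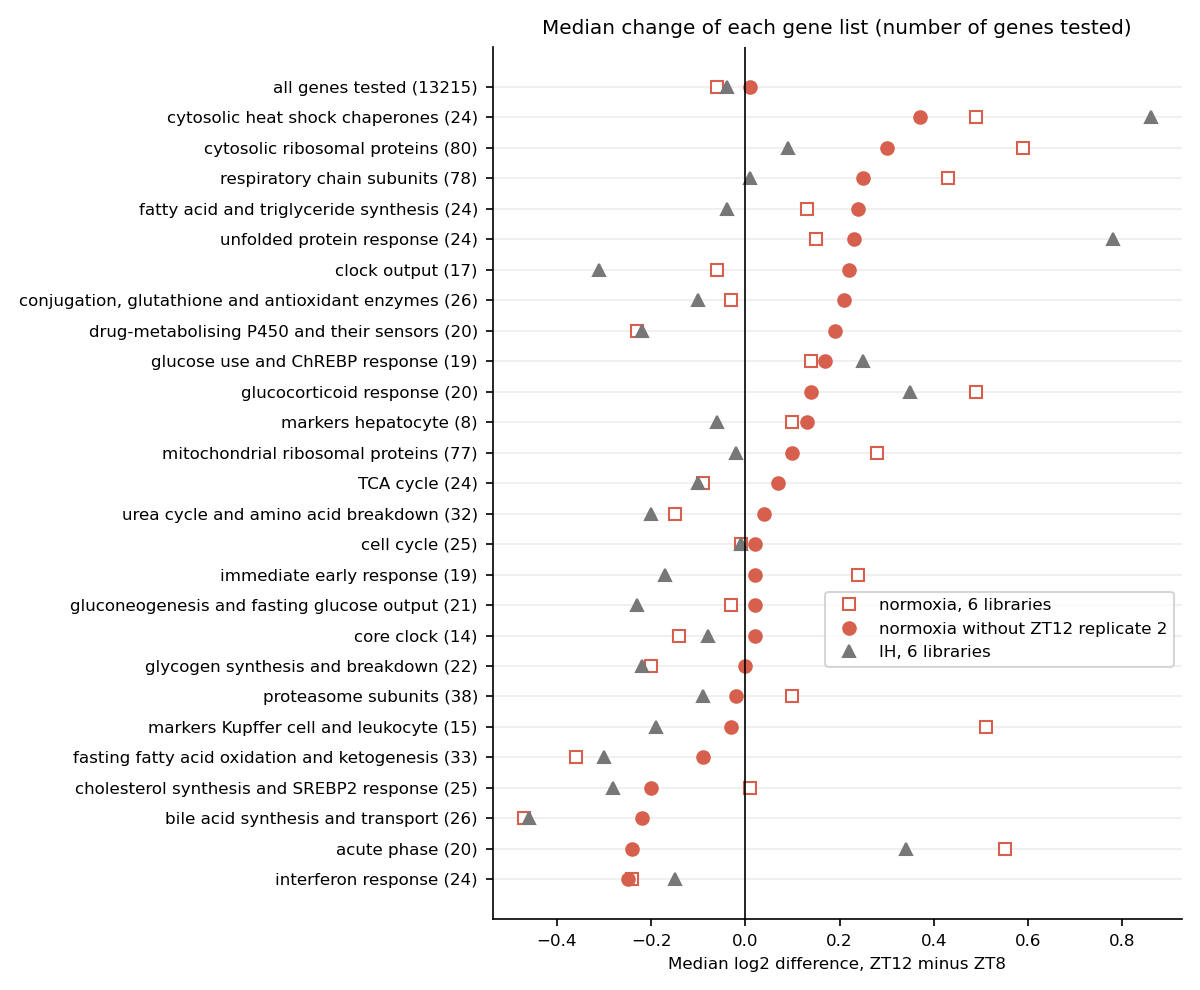
Median log2 difference, ZT12 minus ZT8 (horizontal axis), of each gene list with the number of genes tested in brackets, for the 6 normoxia libraries (open squares), the same without ZT12 replicate 2 (red circles) and the 6 IH libraries (grey triangles). Ribosomal and respiratory chain medians lie at 0.59 and 0.43, at 0.30 and 0.25 without the library, and at 0.09 and 0.01 in IH, while heat shock chaperones lie at 0.49, 0.37 and 0.86.

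Several lists held no gene that passed both fits: immediate early genes (0 of 19), cytochromes P450 of drug metabolism with their sensors (0 of 20), conjugation and antioxidant enzymes (0 of 26), cell cycle genes (0 of 25), proteasome subunits (0 of 38), cold-inducible RNA-binding proteins (0 of 2), acute phase genes (0 of 20) and the markers of 8 cell types. Over all genes tested 0.795% rose and 1.45% fell, so in lists of these sizes 0 is near that background and no result about them. The acute phase median was 0.55 with ZT12 replicate 2 and -0.24 without it, and that of Kupffer cell and leukocyte markers 0.51 and -0.03, so that both turned with 1 library. In bulk RNA a change in the number of cells of a type and a change in the RNA of each cell cannot be told apart. Por, the electron donor of the P450 enzymes, came near a call, at 155, 189 and 187 and then 304, 241 and 267 FPKM (adjusted p = 0.081 and 0.097 with limma on 18 and 17 libraries).

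Other genes with the smallest p or the largest differences lay outside the lists. Gde1, a glycerophosphodiester phosphodiesterase, rose from 24.5, 32.8 and 29.1 FPKM to 55.7, 41.0 and 59.4. Cml5, of an N-acetyltransferase family with near copies next to it, rose from 6.27, 5.61 and 5.27 to 15.6, 16.0 and 21.8 FPKM, a difference of 1.47 ± 0.17 (1.54 ± 0.15 without ZT12 replicate 2, with an adjusted p of 0.046 with limma on 5 libraries). Tnnc1, a troponin C of slow and cardiac muscle, rose from 0.686, 1.04 and 1.15 to 2.73, 9.79 and 3.38 FPKM. Gpi1, the glycolytic enzyme glucose-6-phosphate isomerase, rose by little but evenly, from 54.0, 56.1 and 57.8 to 71.6, 73.0 and 76.5 FPKM. Vac14, a scaffold of phosphoinositide synthesis, went likewise from 6.34, 7.47 and 7.02 to 10.6, 10.3 and 10.5. The others of this kind that rose were Ppp1r1b, an inhibitor of protein phosphatase 1 (0.77 ± 0.16), Endog, a mitochondrial endonuclease (0.81 ± 0.21), and Vps37b, of the ESCRT-I sorting complex (0.59 ± 0.14). Without ZT12 replicate 2 their differences were 0.70 ± 0.12, 0.60 ± 0.10 and 0.55 ± 0.10.

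Of the genes that fell, Tymp, thymidine phosphorylase, went from 18.7, 19.2 and 17.5 FPKM to 7.55, 1.22 and 5.30, although it overlaps Sco2 and Ncaph2 and their reads may not be told apart. Atf5, a stress transcription factor, fell from 174, 148 and 137 to 70.7, 75.1 and 86.7 FPKM, and overlaps Nup62 and Il4i1. Fbxo21, a subunit of a ubiquitin ligase, fell from 33.0, 38.2 and 42.0 to 21.2, 3.88 and 11.6 FPKM. Lonp2, the protease of peroxisomes, fell from 130.0, 133 and 124 to 88.0, 68.2 and 80.2 FPKM. Mta3, of the NuRD corepressor, fell evenly from 8.70, 8.79 and 8.55 to 5.73, 5.06 and 5.67 FPKM. Lrp5, a coreceptor of Wnt, and Ppfibp1, a liprin, fell by 0.86 ± 0.15 and 1.10 ± 0.24 (0.76 ± 0.10 and 0.85 ± 0.11 without ZT12 replicate 2).

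Read over the normoxia day, without ZT12 replicate 2, most of the genes that rose had their daily maximum at ZT12. Of the 105, 77 had their highest mean at ZT12 and 21 at ZT16, and 51 had their lowest at ZT4 and 32 at ZT8. Of the 191 that fell, 123 had their lowest mean at ZT12 and 61 at ZT16, and their highest were spread over the light phase, 73 at ZT8, 61 at ZT0 and 47 at ZT4. ZT8 and ZT12 values chose these genes, so an extreme at either time is in part given by the choice. Nr1d1 went on falling, to a mean of 1.74 FPKM at ZT16, and Cry1 on rising, to 11.7 at ZT16 and 14.7 at ZT20.

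Whether the same 4 h looked alike after intermittent hypoxia was asked in the 6 IH libraries, which share no mouse with the normoxia libraries. There limma called 1063 genes higher (8.04%) and 2160 lower (16.3%) at ZT12. Of the 105 genes that rose in normoxia, 99 also had a positive difference in IH and 55 were called higher there (52.4% of the 105 and 5.17% of the IH calls), and 1 was called lower. Of the 191 that fell, 190 had a negative difference in IH and 149 were called lower (78.0% of the 191 and 6.90% of the IH calls). Over all 13215 genes tested, 5493 had a positive difference in IH. Nr1d1 went in IH from 58.0, 64.5 and 50.6 FPKM to 14.0, 7.46 and 6.37, and Cry1 from 2.28, 2.94 and 2.73 to 4.84, 7.82 and 7.90. For both genes the ranges of the normoxia and IH mice overlapped at ZT8 and at ZT12. Across all 13215 genes the differences in normoxia and IH had a Pearson correlation of 0.49 (0.52 without ZT12 replicate 2), as a description over genes, which are not independent. The calls in IH come from a fit of its own 6 libraries, where the median SD between replicates was 0.074 at ZT8 and 0.102 at ZT12, against 0.095 and 0.248 in normoxia, so the numbers of calls do not compare the size of change.

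**Figure D5:**
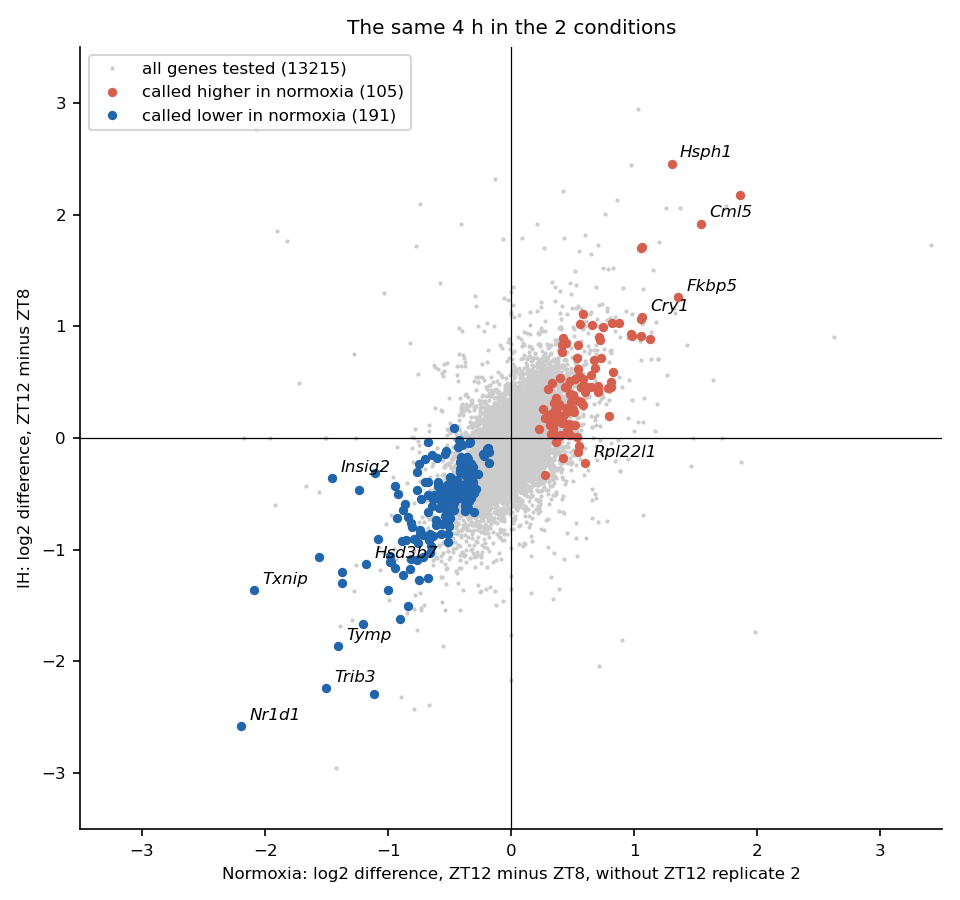
Log2 difference ZT12 minus ZT8 in IH (vertical axis) against that in normoxia without ZT12 replicate 2 (horizontal axis) for all 13215 genes (grey), with the 105 that rose (red) and the 191 that fell (blue); 3 grey genes lie outside the axes. Most coloured points share a sign in both conditions, 99 of the 105 and 190 of the 191, and Insig2 lies nearer to 0 in IH. Of all 13215 genes, 5493 have a positive difference in IH.

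The difference between the conditions was tested for every gene by the interaction of condition and time, and limma called 0 of 13215 genes (0%), the smallest adjusted p being 0.255, with 1092 genes (8.26%) at an unadjusted p under 0.05. The values that follow are therefore a description. Among the genes that fell in normoxia, Insig2 went in IH from 22.2, 20.7 and 17.3 FPKM to 11.9, 16.0 and 19.2, so that the ZT8 level of normoxia mice, 33.1 to 52.7, lay above every IH mouse, and the difference of the changes was 1.16 (unadjusted p = 0.0018). Plin2, at 140.5, 99.9 and 96.2 and then 72.6, 114 and 60.7 FPKM in IH, had overlapping groups there. Tgfbr3l, a relative of a TGF beta coreceptor gene, had the smallest p, at 4.14, 4.87 and 4.80 and then 4.73, 3.59 and 3.09 FPKM in normoxia and at 7.65, 7.30 and 7.35 and then 2.34, 1.95 and 2.69 in IH. Ero1lb, an oxidase that helps form disulfide bonds, was flat in normoxia (10.5, 10.8 and 11.8, then 11.1, 9.52 and 13.7 FPKM) and higher at ZT12 in IH (10.7, 10.7 and 11.7, then 22.0, 23.8 and 20.0). Of the heat shock and unfolded protein response lists, 18 and 15 of 24 members were called higher in IH by the fit of its 6 libraries. Over all genes tested this share was 8.04%. The same fit in normoxia, where the ZT12 mice varied more, called 0 genes of any kind, so these counts do not compare the conditions. No member passed the test of the difference.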

How the data were processed

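Poly-A RNA of mouse liver was sequenced strand-specifically (Illumina Stranded mRNA Prep). Per the labels and the study's methods, the authors aligned reads with TopHat2 2.1.1 to mm10 and deposited FPKM values from Cufflinks 2.2.1, a table for each condition; the annotation, any scaling between libraries and the use of strand in counting are not given in the sources used here. Without strand, overlapping genes cannot be told apart. Groups came from the sample titles. Of 24346 symbols in the 24883 rows of a table, 280 were repeated and dropped. Tests covered the 13215 others whose mean FPKM reached 0.1 when taken over all 36 libraries. Depth is unknown, so no counting error is given.

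Differences of log2(FPKM + 1) were tested with limma 3.58.1 (R 4.3.3; moderated test with intensity trend, two-sided, Benjamini-Hochberg adjustment over all 13215 genes): ZT12 against ZT8 in 6 libraries, in 5 without ZT12 replicate 2, with the spread of 18 or 17 normoxia libraries, in IH, and as the interaction of condition and time. The fit of the 6 libraries was the one planned. The one with 17 libraries and the rule that a gene passes both fits were chosen after seeing the data. The gene lists, the markers and the comparison itself were chosen with earlier results of these data known. On simulated data with 200 genes changed by 1 on the log2 scale, 63.5% were recovered with 6 libraries and 80% with 18. There the noise of a gene was normal and alike in all libraries, and no library stood apart. These shares therefore do not give the power of the real comparison.

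Named genes were, in each direction, the 10 with the smallest P and the 5 with the largest difference among genes passing both fits with a mean of at least 1 FPKM and no overlap of the groups, up to 6 of each list by smallest P, all clock genes, up to 5 in each direction by the interaction, and up to 5 whose call is lost without ZT12 replicate 2. Symbols of the form Gm and a number, or ending in Rik, were not named, and some other genes that the rule takes in are not reported here. Promoter sequences came from RefSeq (GRCm38.p6).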

Additional observations from a re-analysis of the deposited data

Results flagged for a closer look

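In 9 of the 231 named genes every normoxia library moved one way from ZT8 to ZT12 and every IH library the other way, so that the groups did not overlap in either condition. Over all 13215 genes tested this was so in 126 (0.953%). Gamt, Clock, Mical2, Mid1 and Rpl22l1 were named at least in part for a small p of the interaction, which the same values give, so the 9 are a description and no test of the pattern. The IH change minus the normoxia change, on the log2 scale, was 0.82 in Clock, 0.80 in Mid1, a ubiquitin ligase of microtubules, and 0.71 in Mical2, an actin oxidase, all 3 of which were lower at ZT12 in normoxia and higher in IH. It was -0.94 in Apoa1, the main protein of HDL, -0.82 in Gamt, which makes creatine, -0.82 in Mrpl14, -0.66 in Psmb4, -0.56 in Rbm3, an RNA-binding protein induced by cold, and -1.01 in Rpl22l1, all of which were higher at ZT12 in normoxia and lower in IH. The interaction test (limma) gave none of the 9 an adjusted p under 0.05, and unadjusted p ran from 0.00042 in Gamt to 0.053 in Apoa1. Without ZT12 replicate 2 the normoxia differences of Apoa1 and Psmb4 shrank from 0.62 to 0.17 and from 0.54 to 0.23. Rpl22l1 alone of the 9 passed both normoxia fits, at 42.4, 36.5 and 36.9 FPKM at ZT8 and 57.7, 87.7 and 59.9 at ZT12, against 57.5, 66.6 and 60.7 and then 50.6, 52.8 and 53.8 in IH.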

How the results depend on the processing

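The planned fit of 6 libraries called 0 genes, and it did so with a pseudocount of 0.1, without the filter, with a minimum mean of 1 FPKM, with a common sum, quantile normalization, the length and GC trend removed, and repeated symbols summed; median of ratios called 2 genes lower and 0 higher. Genes higher and lower at ZT12 numbered 98 and 198 at an unadjusted p under 0.01, 161 and 309 with the spread of 18 libraries, 936 and 1596 with that of all 36, and 193 and 380 with sample weights. Leaving out 1 library gave 0 to 11 higher and 0 to 14 lower, the highest without ZT12 replicate 2. Of the settings chosen after seeing the data, the spread of 17 libraries gave 211 and 234 (445 in all, against 25 in the fit of 5 libraries), both fits together 105 and 191, of which 204 were called in the same direction in IH against 0 for the planned fit, and the spread of 18 libraries gave 192 and 338 with the length and GC trend removed, 280 and 457 with median of ratios, 52 and 272 with a common sum and 318 and 503 with quantile normalization. The common sum moved the median of all genes from -0.06 to -0.16. The interaction called 215 genes at an unadjusted p under 0.01, 3 with the spread of 36 libraries, 4 with 35, and 0 otherwise, also on leaving out any 1 library (0 to 0). The cause of these differences was not tested.

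With the replicate block 0 genes were called higher, 0 lower and 0 by the interaction. Deviations from the mean of each time had correlations of -0.34, -0.252 and 0.139 between same-numbered libraries of ZT8 and ZT12. Between differently numbered ones they ran from -0.277 to 0.351. With 3 libraries in a group these values are tied to each other. They cannot decide whether the numbers mark pairs or batches. None of the 53 named genes that passed both fits changed sign under any of the 23 settings. List medians changed sign 96 times over 33 lists.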

Other observations

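Some genes passed the fit with the spread of 18 libraries and lost the call without ZT12 replicate 2. Esr1, the estrogen receptor alpha gene, was at 1.92, 0.746 and 1.40 FPKM at ZT8 and at 2.88, 3.90 and 2.42 at ZT12 (adjusted p = 0.030 and 0.070 with limma on 18 and 17 libraries). P4ha1, a prolyl hydroxylase of collagen, was at 1.11, 1.38 and 1.92 and then 2.49, 4.26 and 4.05 FPKM (adjusted p = 0.022 and 0.052). Parp12, an interferon-inducible ADP-ribosyltransferase, was at 9.71, 9.62 and 9.18 and then 6.15, 5.09 and 6.20 FPKM (adjusted p = 0.024 and 0.051). In these 3 genes the groups did not overlap with or without that library. In all, 56 genes higher and 118 lower passed with 18 libraries alone, and 106 and 43 with 17 alone.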
